A study of Homo sapiens with 10 samples.

Results

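The RNA-seq libraries made after silencing of *CHD4* were compared directly with those made after silencing of *TRPS1*, both in T47D cells, an established line of luminal, estrogen receptor positive breast cancer. These are 4 of the 10 samples of the series, and they were chosen by their labels: 2 libraries with CHD4 siRNA and 2 with TRPS1 siRNA, each collected 72 h after transfection of the siRNA. The other samples are 2 control siRNA libraries, 2 TRPS1 ChIP libraries and 2 input libraries. The control siRNA libraries were not used, so a gene that differs here differs between the knockdowns, and the difference cannot be assigned to either siRNA. The labels do not say whether replicates 1 and 2 came from separate cultures, so the p-values measure the spread between these libraries, which may be technical.

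TRPS1 is an atypical member of the GATA family of zinc finger transcription factors and is known as a repressor that recognizes GATA sequences. It is highly expressed in luminal breast epithelium. CHD4 is the ATPase of the NuRD complex, which couples nucleosome remodeling to histone deacetylation by HDAC1 and HDAC2 and contains MTA, GATAD2, MBD and RBBP subunits. The study addressed whether TRPS1 represses genes through this complex, and the direct comparison shows at which genes the loss of the remodeler and the loss of the DNA-binding factor leave different transcript levels. The methods list a pair of siRNAs against *CHD4*, shown because they define the knockdown, without saying which was used for RNA-seq, and the methods for RNA-seq name an shRNA where the labels name an siRNA. Their sequences, from 5′ to 3′, are as follows.
CHD4 siRNA 1: cgggaguucaguaccaaua
CHD4 siRNA 2: gggcugcuuacuugaacau

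Each silenced gene was lower under its own siRNA. *CHD4* had 99.9 and 55.9 CPM (counts scaled to library size with TMM factors) in replicates 1 and 2 of CHD4 siRNA, and 310.3 and 278 CPM in those of TRPS1 siRNA. *TRPS1* had 2556 and 1635 CPM with CHD4 siRNA, against 1197 and 748 CPM with TRPS1 siRNA. For both genes the groups did not overlap, but for *TRPS1* the gap between them was smaller than the distance between the replicates of either group. In edgeR the log2 fold change of CHD4 siRNA over TRPS1 siRNA was -1.92 (SE 0.29, unadjusted p = 0.00059) for *CHD4* and 1.11 (SE 0.33, unadjusted p = 0.015) for *TRPS1*. The value for *TRPS1* was 0.75 without replicate 1 of CHD4 siRNA and 0.82 without replicate 2 of TRPS1 siRNA, both under the 2-fold limit used below. Even with TRPS1 siRNA, the *TRPS1* level stayed far above the 30.8 CPM of the median gene.

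The libraries held 10754802 and 11640282 counts with CHD4 siRNA and 10333138 and 14515392 counts with TRPS1 siRNA, and 3 counts, taken as the limit of detection, equal 0.204 to 0.295 CPM. Of 19695 gene symbols in either table, 13143 exceeded 2 CPM in at least 2 of the 4 libraries and were tested. Values are given in the order CHD4 siRNA replicates 1 and 2 and TRPS1 siRNA replicates 1 and 2, which is kept below. The luminal marker *KRT8*, a simple epithelial keratin, had 1257, 1181, 1104 and 1277 CPM and *ESR1*, the estrogen receptor, 257, 193, 203 and 243 CPM. Of 27 listed luminal identity genes 26 were tested, and 25 of these exceeded 2 CPM in every library. The exception was *TFF1*, with 3, 11, 29 and 46 counts. Of 22 listed fibroblast, endothelial and leukocyte markers, 5 were tested, and *PTPRC*, *CD3E* and *PECAM1* had at most 3 counts in any library. The summed level of that list was 107 and 76.2 CPM with CHD4 siRNA and 116 and 94.4 CPM with TRPS1 siRNA, most of it *COL1A1*, a collagen chain of mesenchymal cells, at 92.1, 61.0, 109 and 82.8 CPM (log2 -0.32, SE 0.25). *CD8A* and *CD14*, at no more than 5.65 CPM, were the members of the list past the threshold defined below. When any single library was left out, at most 1 of them passed.

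At the threshold of the study, a fold change over 2 with an unadjusted p under 0.05, 278 genes (2.12% of those tested) were higher with CHD4 siRNA and 205 (1.56%) were lower, 483 (3.67%) in all. The groups did not overlap in any of them, where 3061 (23.3%) of all genes tested had both CHD4 siRNA libraries above both TRPS1 siRNA libraries, 3122 (23.8%) the reverse and 6183 (47%) either. The median fold among them was 2.53 for higher and 2.42 for lower genes. None of the 13143 genes had a Benjamini-Hochberg adjusted p under 0.05 in the edgeR quasi-likelihood test without a block, where the smallest adjusted p was 0.0903, while 2023 genes (15.4%) had an unadjusted p under 0.05. With the replicate number as a block, the same test gave an adjusted p under 0.05 for 1744 higher (13.3%) and 1628 lower (12.4%) genes, and 304 (2.31%) and 228 (1.73%) of these also exceeded a 2-fold change. Nearly all genes past the threshold without the block were called with it, 277 of 278 higher and 203 of 205 lower genes. The block mainly added smaller differences, as 2840 of its 3372 calls (84.2%) were under 2-fold.

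Both counts carry limits. The block leaves 1 residual degree of freedom and takes its spread from all genes together, and the labels do not say what a shared replicate number stands for. Higher genes outnumbered lower ones in the full comparison, but without replicate 1 of CHD4 siRNA the counts were 243 higher and 308 lower, and without replicate 2 of CHD4 siRNA 325 higher and 399 lower. Genes past the threshold were mostly of low level, with a median of 7.78 CPM for higher and 9.08 CPM for lower genes, and 178 higher and 134 lower genes exceeded 2 CPM in every library. The remaining genes entered the test through libraries of the group in which they were high.

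**Figure D1:**
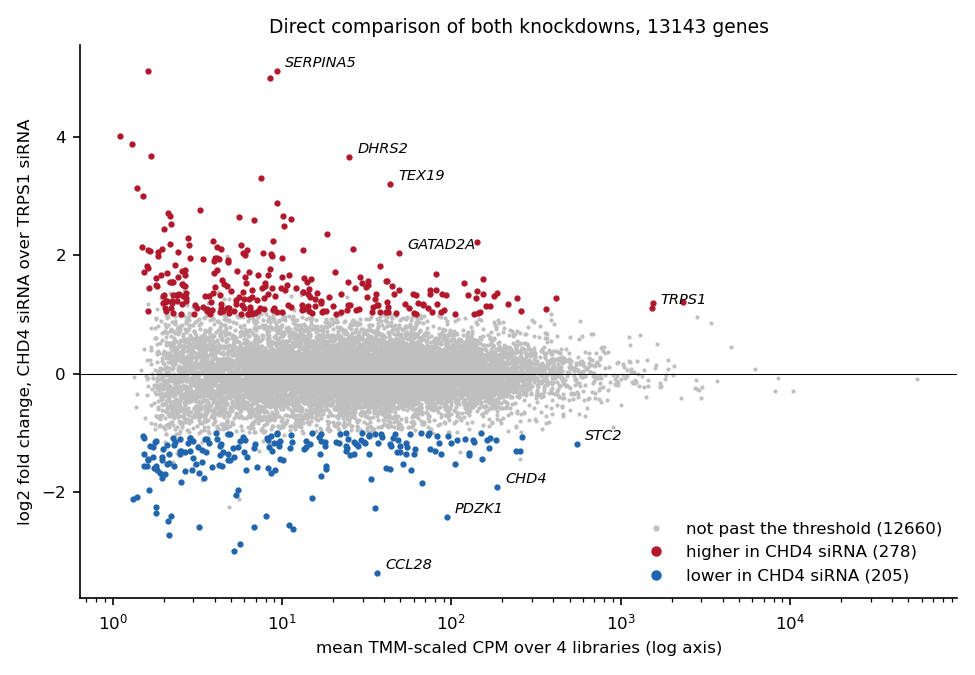
Each point is 1 of the 13143 genes, with the mean level over the 4 libraries on a log axis (TMM-scaled CPM) and the log2 fold change of CHD4 siRNA over TRPS1 siRNA. The 278 higher genes are red and the 205 lower genes blue, and the widest differences lie at low levels, whereas *CCL28* and *PDZK1* stand out among the lower genes at intermediate levels.

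Among the 15 largest differences toward CHD4 siRNA were genes usually silent in somatic cells. *TEX19*, a germ cell gene, had 102 and 54.9 CPM with CHD4 siRNA against 10.2 and 6.93 CPM with TRPS1 siRNA (log2 fold change 3.20, SE 0.37). The cancer-testis genes *MAGEA10*, *MAGEB6* and *MAGEC2* were also in this set, with log2 fold changes of 3.30, 2.60 and 2.17. Across all 13 tested genes whose symbol begins with MAGE, a group formed after the values were seen, 4 were higher and 1 was lower past the threshold, beside 2.12% and 1.56% of all genes. Of those called *MAGEB6* alone exceeded 2 CPM in every library, so the others passed the filter on low values through the group in which they were higher, and their count supports nothing about the family. Reads of such closely related copies, and of the pseudogenes *ANKRD20A19P* and *AACSP1*, may have been divided between loci, so their values are uncertain.

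*DHRS2*, a mitochondrial dehydrogenase/reductase of the short-chain family, had 35.7 and 56.8 CPM with CHD4 siRNA and 3.05 and 4.21 CPM with TRPS1 siRNA, a 12.6-fold difference (log2 3.65, SE 0.32). *SERPINA5*, the inhibitor of activated protein C, had the largest log2 fold change of those named, 5.11 (SE 0.74), from 27.5 and 8.84 CPM against 0.295 and 0.68 CPM. Its TRPS1 siRNA levels lay at or close to the limit of detection, so the size of this fold is poorly determined. *LGALS8*, which encodes galectin-8, was the most abundant of the 15, with 266 and 199.5 CPM against 64.8 and 35.4 CPM (log2 2.22, SE 0.32).

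The remaining higher genes included cell surface and signaling proteins. *FOLR1*, the folate receptor alpha, had 32.5, 28.8, 6.79 and 5.17 CPM. *GNG4*, a G protein gamma subunit, had 15.2, 17.7, 1.87 and 2.52 CPM. *PTGS1*, cyclooxygenase 1, had 21.1, 14.1, 2.56 and 2.99 CPM. In each case the lowest CHD4 siRNA library was above the highest TRPS1 siRNA library by more than the distance between replicates. *CHRD*, the secreted BMP antagonist chordin, *THY1*, a surface glycoprotein, and *RUNX1T1*, a corepressor that recruits NCoR, had log2 fold changes of 2.49, 2.23 and 2.64.

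**Figure D2:**
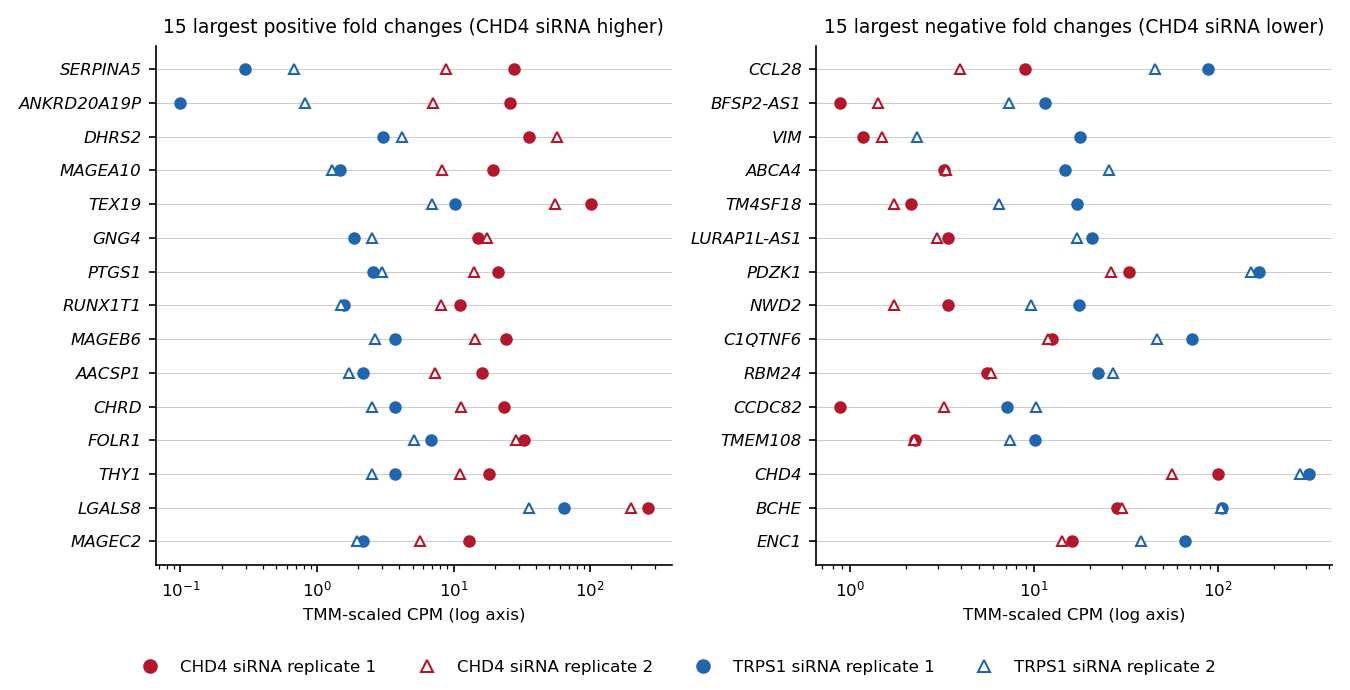
TMM-scaled CPM on a log axis for the 15 genes with the largest positive (left) and the 15 with the largest negative log2 fold change (right) among genes of at least 5 CPM past the threshold in both fits. Red symbols are CHD4 siRNA and blue TRPS1 siRNA, circles replicate 1 and triangles replicate 2. Groups that do not overlap were a condition for choosing these genes, so their separation is no result. It is least for *VIM*.

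Toward TRPS1 siRNA the largest difference was that of *CCL28*, a chemokine of mucosal epithelia, which had 8.96 and 3.97 CPM with CHD4 siRNA and 87.8 and 45.3 CPM with TRPS1 siRNA (log2 -3.37, SE 0.49, 10.4-fold). *PDZK1*, a scaffold protein induced by estrogen in breast cancer cells, had 32.7 and 26.2 CPM against 166 and 150.3 CPM (log2 -2.43, SE 0.18), and its unadjusted p of 1.1e-05 was the smallest of all genes tested. *BCHE*, butyrylcholinesterase, had 28.3, 30.0, 105 and 104 CPM (log2 -1.84, SE 0.15). For *PDZK1* and *BCHE* the spread between replicates was small beside the difference.

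*C1QTNF6* had 12.6, 11.8, 71.8 and 46.4 CPM, *RBM24*, an RNA-binding splicing regulator, 5.55, 5.78, 22.2 and 26.6 CPM, and *ABCA4*, a retinoid flippase of photoreceptors, 3.21, 3.3, 14.7 and 25.4 CPM. That all CHD4 siRNA values lay below all TRPS1 siRNA values was a condition for choosing these genes. *VIM*, which encodes the mesenchymal intermediate filament vimentin, met this condition too, but its TRPS1 siRNA replicates were far apart. It had 1.17, 1.49, 17.7 and 2.31 CPM, so that its log2 fold change of -2.87 (SE 0.97) rested on replicate 1 of TRPS1 siRNA. In DESeq2 with the replicate block *VIM* did not pass the threshold (log2 -2.28).

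Abundant genes differed as well, by smaller factors. *TFRC*, the transferrin receptor that imports iron, had 3517 and 3044 CPM with CHD4 siRNA and 1382 and 1441 CPM with TRPS1 siRNA (log2 1.22, SE 0.20). *EIF4B*, a cofactor of the translation initiation helicase, had 2704, 1596, 1155 and 722 CPM (log2 1.20, SE 0.35). This difference was 0.77 without replicate 1 of CHD4 siRNA and 0.91 without replicate 2 of TRPS1 siRNA, both under 2-fold. *IGFBP5* and *IGFBP4*, binding proteins of insulin-like growth factors, and *SLC7A5*, a transporter of large neutral amino acids, were higher with log2 fold changes of 0.66, 0.59 and 0.88 and passed the adjusted threshold only with the block.

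In the other direction, *STC2*, the secreted glycoprotein stanniocalcin 2, had 469 and 202 CPM with CHD4 siRNA and 968 and 558 CPM with TRPS1 siRNA (log2 -1.19, SE 0.45). Leaving out replicate 2 of CHD4 siRNA or replicate 1 of TRPS1 siRNA brought this value to -0.70 and -0.74, under 2-fold. *CANX*, the endoplasmic reticulum chaperone calnexin, had 729.8, 531, 1170.0 and 1191 CPM (log2 -0.91, SE 0.21), while the noncoding RNA *TUG1* had 321, 283, 473 and 497 CPM (log2 -0.68, SE 0.15). Groups that do not overlap were a condition for naming these 3 genes.

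Within the NuRD complex, *GATAD2A* stood apart. This subunit, which bridges CHD4 to the histone deacetylase part of the complex, had 73.8 and 84.3 CPM with CHD4 siRNA and 20.7 and 17.9 CPM with TRPS1 siRNA, a 4.1-fold difference (log2 2.04, SE 0.18, unadjusted p = 3e-05). It alone of 12 tested subunits other than the CHD ATPases passed the threshold, where 3.67% of all genes did, and none was lower past it. With the block 2 of the 12 were called higher and 2 lower, beside 13.3% and 12.4% of all genes. *MTA2*, the subunit after which the study names its complex, had 102, 108, 139 and 129.5 CPM (log2 -0.35, SE 0.14), with groups apart by under 1.5-fold. None of the 9 other CHD remodelers passed the threshold, and *CHD5*, the neuronal paralog of *CHD4*, came nearest with 64.3, 81.6, 42.6 and 48.7 CPM (log2 0.68, SE 0.19). Of 22 genes of the NCoR, SIN3, CoREST and CtBP corepressors 1 passed, *RCOR2*, a CoREST scaffold, with 47.3, 26.1, 14.5 and 10.7 CPM (log2 1.54, SE 0.34). No gene passed it among 28 tested Polycomb genes or 22 SWI/SNF subunits. The share of all genes was 3.67%, from which the counts of lists this short cannot be set apart.

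Of the 8 genes at which the study describes TRPS1 binding or regulation, none passed the threshold between the knockdowns, beside 3.67% of all genes, a share from which so short a list cannot be set apart. The list median log2 fold change was -0.13 against -0.0013 for all genes; the study chose these genes with the same samples at hand, so they are no independent set. *TP63*, the p53 family transcription factor of basal epithelium, had 26.0 and 7.6 CPM with CHD4 siRNA and 14.6 and 5.98 CPM with TRPS1 siRNA (log2 0.72, SE 0.66). Its replicates differed more than its knockdowns, and without replicate 1 of CHD4 siRNA its log2 fold change was -0.42. *ABCA12*, a lipid transporter, had 345, 238, 396 and 306 CPM (log2 -0.27, SE 0.24), and *SETD7*, a lysine methyltransferase, 143, 135, 177 and 171 CPM (log2 -0.32, SE 0.14). With the block, *TP63* was called higher and *SETD7*, *RNF43* and *NAALADL2* lower, at edgeR adjusted p values of 0.016, 0.029, 0.0066 and 0.022. These are 4 of the 8, beside 25.7% of all genes called with the block.

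**Figure D3:**
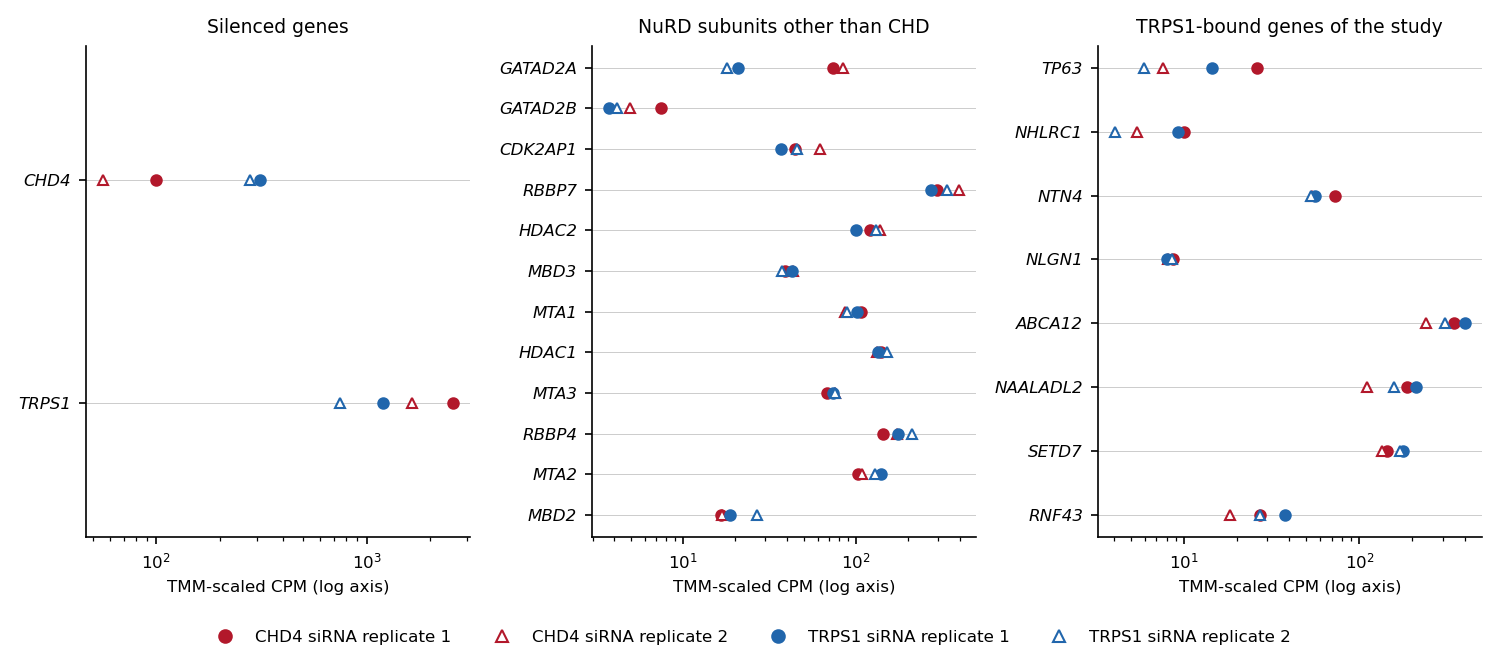
TMM-scaled CPM on log axes for the 2 silenced genes, the 12 NuRD subunits other than CHD and the 8 TRPS1-bound genes the study names, 1 symbol per library (red CHD4 siRNA, blue TRPS1 siRNA, circles replicate 1, triangles replicate 2). *GATAD2A* is the subunit whose groups lie far apart, whereas the symbols of both knockdowns are mixed or close for most other genes.

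The list with most genes past the threshold was that of neuronal genes. Of 40 listed neuronal genes 19 were tested, and 7 of these were higher past the threshold, none lower, where 2.12% and 1.56% of all genes were. Their median log2 fold change was 0.74, and the higher count ranged from 6 to 8 when single libraries were left out. *UNC13A*, a priming factor of synaptic vesicles, had 10.6, 8.92, 2.56 and 3.33 CPM (log2 1.71, SE 0.30). *SYP*, the vesicle membrane protein synaptophysin, had 16.1, 19.6, 5.32 and 7.68 CPM (log2 1.45, SE 0.28). *KCNH2*, a potassium channel of heart and neurons, had 11.9, 11.7, 4.63 and 4.69 CPM (log2 1.34, SE 0.24). All 3 were low genes in this epithelial line with groups well apart. *NRXN2*, *SLITRK6*, *STMN3* and *SYN1* were the other members past it, and 6 of the 7 exceeded 2 CPM in every library, *NRXN2* being the exception. The list did not move as a whole, since *NCAM2*, a neural adhesion molecule, had 279, 239.9, 492 and 435 CPM (log2 -0.84, SE 0.16).

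TGF-beta and BMP signaling genes leaned the same way. Of 21 tested, 3 were higher past the threshold and none lower, beside 2.12% and 1.56% of all genes. At an unadjusted p under 0.05 alone 8 were higher and none lower, where 8.07% and 7.33% of all genes were. With the block 9 were called higher and 2 lower, beside 13.3% and 12.4% of all genes. The median log2 fold change was 0.30. *ID1*, an inhibitor of differentiation induced by BMP, had 10.9, 15.4, 2.95 and 4.69 CPM (log2 1.76, SE 0.34), and *TGFBR3*, the coreceptor betaglycan, 12.2, 13.6, 4.53 and 5.85 CPM (log2 1.31, SE 0.26). Among 17 tested WNT pathway genes, 3 were higher and none lower past the threshold, beside 2.12% and 1.56% of all genes. These were *CXXC4*, an inhibitor of Dishevelled, with 36.6, 31.0, 14.1 and 16.2 CPM, and the antagonists *DKK1* and *NKD1*. Of the 3, *DKK1* and *NKD1* had under 2 CPM in at least 1 TRPS1 siRNA library. With the block 4 of the 17 were called higher and 2 lower, beside 13.3% and 12.4% of all genes.

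Of 24 tested estrogen-responsive genes, 4 were lower past the threshold, *PDZK1*, *STC2*, *ELOVL2* and *TFF1*, and none was higher, beside 1.56% lower and 2.12% higher of all genes. With the block 10 were called lower and 6 higher, beside 12.4% and 13.3% of all genes. The list median was -0.21, with -0.04 within replicate 1 and -0.35 within replicate 2. *ELOVL2*, a fatty acid elongase, had 2.82, 5.12, 10.1 and 9.11 CPM (log2 -1.26, SE 0.35). *TFF1*, the trefoil factor, was near the filter, with 0.292, 0.909, 2.86 and 3.13 CPM. Not all members shared this direction, as the estrogen-induced *IGFBP4* was among the higher genes above and *ESR1* itself had a log2 fold change of 0.01 (SE 0.20). The lower count was between 2 and 4 when single libraries were left out. Of 26 tested luminal identity genes 1, *TFF1*, passed the threshold; *KRT18*, a simple epithelial keratin, had 919.7, 721, 1167 and 1192 CPM (log2 -0.52, SE 0.19).

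**Figure D4:**
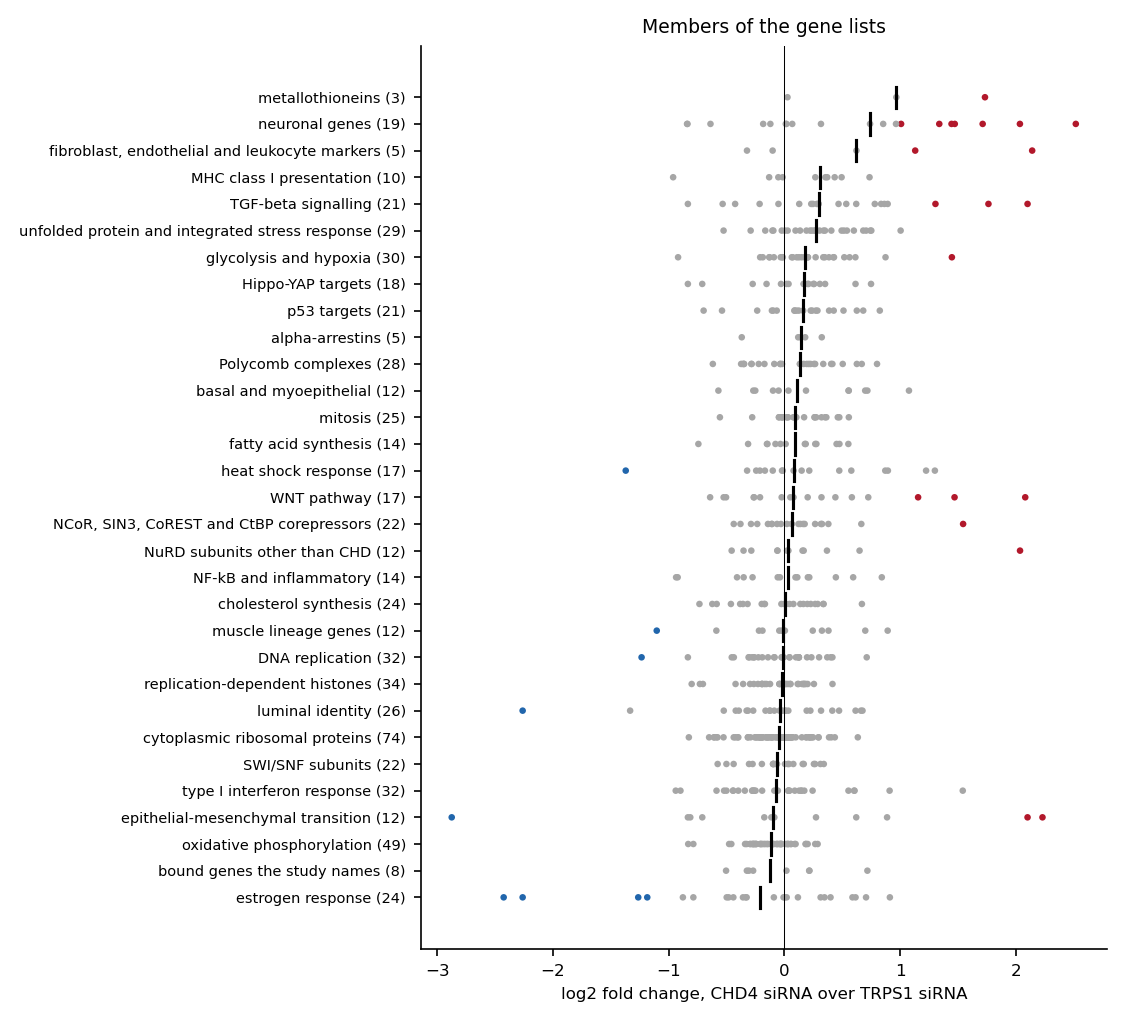
Log2 fold change of CHD4 siRNA over TRPS1 siRNA for each tested member of the gene lists, with the number of members in parentheses and the list median as a black bar. Members past the study's threshold are red when higher and blue when lower; neuronal genes have 7 red and no blue members and estrogen response genes 4 blue and no red.

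Most other programs gave few or no genes past the threshold, beside 3.67% of all genes. In the unfolded protein and integrated stress response 0 of 29 genes passed. At an unadjusted p under 0.05, 4 were higher and none lower, beside 8.07% and 7.33% of all genes. *DNAJC3*, an inhibitor of eIF2alpha kinases, was the foremost of these, with 117, 110.1, 80.1 and 69.6 CPM (log2 0.60, SE 0.15). With the block 11 of the 29 were called higher and 1 lower, beside 13.3% and 12.4% of all genes. Of 30 glycolysis and hypoxia genes 10 were called higher and 1 lower. The medians of these 2 lists were 0.43 and 0.52 within replicate 1, but -0.01 and -0.10 within replicate 2. Of 74 cytoplasmic ribosomal protein genes and 49 nuclear genes of oxidative phosphorylation none passed, and their medians were -0.05 and -0.12. Single genes passed among 30 genes of glycolysis and hypoxia (*CA9*, a hypoxia-induced carbonic anhydrase, higher), 17 of the heat shock response (*HSPB8*, a small chaperone, lower), 32 of DNA replication (*TYMS*, thymidylate synthase, lower), 12 of the muscle lineage (*TNNI2*, lower) and 3 metallothioneins (*MT1X*, higher). The calls of *CA9*, *HSPB8*, *TYMS* and *TNNI2* each failed without some single library, with log2 fold changes as near to 0 as 0.91, -0.98, -0.54 and -1.05. Of 12 tested genes of epithelial-mesenchymal transition 2 were higher, *THY1* among them, and 1, *VIM*, was lower. None passed among the lists for p53 targets, MHC class I presentation, NF-kB and inflammation, Hippo-YAP targets, cholesterol synthesis, fatty acid synthesis, replication-dependent histones, basal and myoepithelial genes or alpha-arrestins.

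Interferon-stimulated genes differed more between the replicate numbers than between the knockdowns. *ISG15*, a ubiquitin-like interferon effector, had 6.33 and 84.6 CPM in replicates 1 and 2 of CHD4 siRNA and 5.51 and 82.3 CPM in those of TRPS1 siRNA. *MX1*, an antiviral GTPase, had 63.7, 401, 84.5 and 505 CPM. In both genes replicate 2 was several-fold above replicate 1 under both siRNAs. Over the 32 tested genes of the list the median log2 ratio of replicate 1 to replicate 2 was -2.05 with CHD4 siRNA and -1.99 with TRPS1 siRNA, whereas the median log2 fold change between the knockdowns was -0.07 and no gene passed the threshold. Without replicate 2 of CHD4 siRNA, 13 of the genes passed as lower, and without its replicate 1, 3 passed as higher. With the block 8 of the 32 were called lower and 3 higher, beside 12.4% and 13.3% of all genes. Among the lower genes was *BST2*, tetherin, with 160.3, 307, 320.2 and 576 CPM (log2 -0.95 with the block, SE 0.12), whose log2 ratio of the knockdowns was -0.996 within replicate 1 and -0.91 within replicate 2.

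Mitosis genes moved with the replicate number too. Their median log2 ratio of replicate 1 to replicate 2 was -1.07 with CHD4 siRNA and -0.86 with TRPS1 siRNA over 25 genes, none of which passed the threshold between the knockdowns. Across all genes this ratio correlated between the knockdowns with Pearson r = 0.637, and the ratio of the knockdowns within replicate 1 correlated with that within replicate 2 with r = 0.670; genes are not independent replicates, and the 4 libraries share these ratios. Replicates differed by more than 2-fold in 662 genes with CHD4 siRNA and 388 with TRPS1 siRNA, of which 202 were shared in the same direction and 1 in opposite directions. The part of culture, transfection or library preparation in this shift was not tested. *TXNIP*, a glucose-responsive alpha-arrestin with 53.6, 387, 18.9 and 333 CPM, differed between the fits: its log2 fold change was 0.32 (SE 1.30) without the block and 0.75 (SE 0.13, edgeR adjusted p = 1.4e-07) with it. The log2 ratio of the knockdowns for *TXNIP* was 1.48 within replicate 1 and 0.22 within replicate 2.

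**Figure D5:**
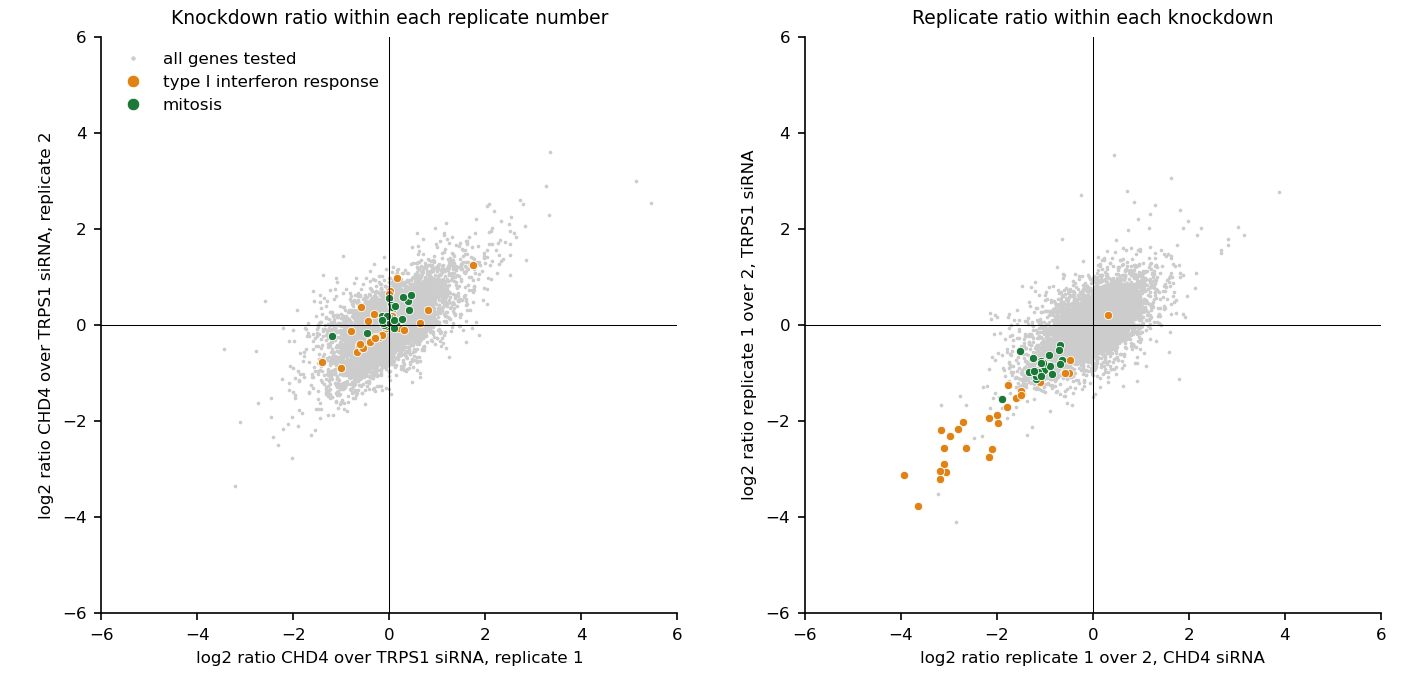
Left, log2 ratio of CHD4 siRNA to TRPS1 siRNA within replicate 1 against that within replicate 2; right, log2 ratio of replicate 1 to replicate 2 with CHD4 siRNA against that with TRPS1 siRNA. Grey points are all 13143 genes, orange the 32 type I interferon response genes and green the 25 mitosis genes, which on the left scatter among the other genes on several sides of the origin and on the right lie nearly all in the lower left quadrant.

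Among long noncoding RNAs, genes lower with CHD4 siRNA outnumbered higher ones. Of 550 tested, matched to RefSeq by symbol, 29 (5.27%) were lower and 5 (0.909%) higher past the threshold, against 156 (1.29%) and 265 (2.20%) of 12065 protein-coding genes, and the median log2 fold change was -0.15 for noncoding and 0.01 for coding genes. This split was examined as a description, without a test. Of the lower ones, *BFSP2-AS1*, *LINC01136* and *LINC01232* were under 2 CPM in both CHD4 siRNA libraries. They passed the filter on low values through the TRPS1 siRNA libraries, where they were high. How many of the 29 did so was not counted, so the counts support nothing about noncoding genes as a class. Their share of all counts was 8.03% and 6.21% with CHD4 siRNA and 9.01% and 6.60% with TRPS1 siRNA, higher in both libraries of replicate 1. *DSCAM-AS1*, a noncoding RNA of luminal breast cancer, had 25.3 and 35.4 CPM with CHD4 siRNA and 68.7 and 64.0 CPM with TRPS1 siRNA (log2 -1.13, SE 0.21). *LURAP1L-AS1* had 3.41, 2.97, 20.6 and 17.0 CPM (log2 -2.55, SE 0.26), and in the other direction *LINC01234* had 16.4, 11.6, 2.76 and 4.21 CPM (log2 1.98, SE 0.33). The sources used here do not state strand-specific counting, so reads of antisense genes and their partners cannot be told apart. *DSCAM-AS1* and *LINC01234* were chosen after their values were seen.

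The ChIP-seq list of the series, 1844 TRPS1 peaks from T47D cells, allowed the direct comparison to be set beside TRPS1 binding. Counting peaks inside the gene or up to 50 kb from it, 54 of 193 lower genes with a RefSeq position (28.0%) had a peak, against 39 of 273 higher genes (14.3%) and 2191 of all 12915 tested genes (17.0%). Peaks inside the gene itself were found in 26 lower (13.5%), 6 higher (2.20%) and 728 of all genes (5.64%), while the median gene spans were similar, at 27.8, 30.6 and 29.5 kb. The shares lay closer together for genes called with the block, a set added after seeing the data: 317 of 1586 lower (19.99%) and 285 of 1730 higher genes (16.5%) had a peak in or within 50 kb, and 8.32% and 5.14% had one inside. The median spans of these sets were less alike, at 38.8 kb for lower and 31.7 kb for higher genes. Of the genes past the threshold without the block, 134 lower and 178 higher ones exceeded 2 CPM in every library. The others entered the test through the group in which they were high. Shares with a peak were not counted apart from them, so they support nothing about the called genes as a set. This is a description without a test, and a peak near a gene does not show that it acts on that gene. *PDZK1* had a peak 927 bp from its start and *CCL28* 1864 bp from its start.

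Of the 341 genes past the threshold with a RefSeq promoter sequence, 6 had a peak overlapping the 250 bases before their start, and all but *SYP* were lower with CHD4 siRNA. How many of all tested genes have such a peak was not counted, so these numbers support nothing about the called genes as a set. *KIAA1551* (RefSeq symbol *RESF1*) had 32.1, 35.3, 97.9 and 75.3 CPM (log2 -1.36, SE 0.19), and *THEM4*, a thioesterase, 29.8, 24.6, 80.7 and 55.3 CPM (log2 -1.32, SE 0.24). The antisense RNA *BFSP2-AS1* had 0.876, 1.4, 11.4 and 7.27 CPM (log2 -3.00, SE 0.42) and *C12orf65* (RefSeq symbol *MTRFR*), a mitochondrial translation release factor, 5.06, 7.35, 11.9 and 13.1 CPM (log2 -1.01, SE 0.28). *NEMP2*, a nuclear envelope protein gene, had 2.14, 2.97, 5.22 and 7.68 CPM (log2 -1.33, SE 0.37). The forms of the GATA motif searched on both strands were AGATAA and its variant that ends in G (AGATAG), with the same forms starting with T (TGATAA for the former, TGATAG for the latter), and 22.9% of 27305 promoters held at least 1 of them. Of the 6 windows 4 did, and those of *SYP* and *NEMP2* held none. The 6 were picked because a TRPS1 peak overlaps them, so their share cannot be compared with that of all promoters. The windows of *KIAA1551* and *THEM4* lie wholly within a peak and that of *BFSP2-AS1* mostly, and these 3 are shown with that of *SYP*, which holds no match. The *SYP* window shares 148 of its 250 bases with its peak, and the *NEMP2* window 2. Parts of peaks outside the windows were not searched, so the lack of a match holds for the windows only. Sequences are those of RefSeq on GRCh38.p14 in the direction of transcription, with matches to the motifs on either strand in capitals, and the genes were chosen after their values were seen.
KIAA1551 promoter, chr12:31959165-31959414, plus strand: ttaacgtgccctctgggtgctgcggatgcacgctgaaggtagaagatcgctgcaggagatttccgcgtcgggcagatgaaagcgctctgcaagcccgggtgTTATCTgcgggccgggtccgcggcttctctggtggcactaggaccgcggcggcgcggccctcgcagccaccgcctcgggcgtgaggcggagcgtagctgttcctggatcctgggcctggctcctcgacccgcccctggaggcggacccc
THEM4 promoter, chr1:151909512-151909761, minus strand: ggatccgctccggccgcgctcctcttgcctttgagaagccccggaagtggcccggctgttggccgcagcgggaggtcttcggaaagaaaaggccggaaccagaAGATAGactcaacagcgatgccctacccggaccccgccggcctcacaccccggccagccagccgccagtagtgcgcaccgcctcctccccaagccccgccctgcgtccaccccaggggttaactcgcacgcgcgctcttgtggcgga
BFSP2-AS1 promoter, chr3:133456023-133456272, minus strand: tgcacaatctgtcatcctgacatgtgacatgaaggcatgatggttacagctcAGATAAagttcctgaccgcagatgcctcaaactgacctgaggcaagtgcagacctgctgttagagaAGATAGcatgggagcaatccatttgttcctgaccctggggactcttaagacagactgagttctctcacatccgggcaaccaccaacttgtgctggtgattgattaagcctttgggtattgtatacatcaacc
SYP promoter, chrX:49200194-49200443, minus strand: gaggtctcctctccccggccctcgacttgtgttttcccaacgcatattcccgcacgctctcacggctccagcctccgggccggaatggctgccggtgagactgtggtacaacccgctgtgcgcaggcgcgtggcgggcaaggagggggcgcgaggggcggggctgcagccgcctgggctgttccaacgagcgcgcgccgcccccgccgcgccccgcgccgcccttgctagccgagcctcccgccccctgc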

How the data were processed

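RNA-seq of T47D cells, 2 libraries each with CHD4 siRNA and TRPS1 siRNA, was analysed, grouped by the labels. According to the study's methods, the authors sequenced total RNA depleted of ribosomal RNA, trimmed the reads, mapped these with STAR and obtained gene counts from HTSeq (0.9.0 in the submitters' processing notes), and whole-number read counts were deposited without normalization. The annotation is not given in the sources used here. The authors aligned ChIP-seq reads with BWA (0.7.12-r1039) and called peaks with MACS2 (2.1.1), and the deposited peak list gives start and end positions in bp, of which distances to genes were computed. The submitters' notes name hg38. Whether replicates were pooled is not stated.

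The count tables of both knockdowns were joined by gene symbol. Every gene listed in a table had a summed count over 0 in its 4 libraries, which was checked. Genes absent from a table were taken to have no count there and were set to 0. Library totals were 10333138 to 14515392 counts, and 3 counts were taken as the limit of detection, which covers counting error only. Genes for which 2 or more of the 4 libraries exceeded 2 CPM entered edgeR (4.0.16, R 4.3.3) with TMM factors, a quasi-likelihood F-test and a prior count of 0.125, without a block and with the replicate number as a block. Each standard error is the size of the log2 fold change over the root of its F statistic. The study's threshold (fold change over 2, unadjusted p under 0.05) and Benjamini-Hochberg adjusted p values over all 13143 genes were used. An exact permutation test of 2 against 2 libraries cannot give a two-sided p under 0.3333, so none was used. The scripts were tested on simulated data. Log2 ratios within a replicate number or a knockdown used a pseudocount of 0.5 CPM.

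Named genes are the silenced genes, the 15 largest differences in each direction among genes past the threshold, with an adjusted p under 0.05 with the block, groups apart and a mean of at least 5 CPM, the 8 most abundant in each direction at over 1.5-fold, the bound genes the study names and up to 4 members of each of 34 lists with the smallest p. The mitochondrially encoded genes, 1 of these lists, were not found in the tables. Some genes that this rule names are not reported here. Features outside this rule are identified as such in the text, and list members named beyond these are those past the threshold. Members and lists were chosen with earlier results of these data known. Gene types, positions and promoters come from RefSeq (GRCh38.p14), matched by symbol for 12918 of 13143 genes. Peaks were related to gene spans because a start site was at hand for 78.8% of genes, fewer among called ones; this was decided after seeing the data.

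As alternatives, edgeR's likelihood ratio test and DESeq2 (1.42.0) replaced the test, RLE size factors or plain library sizes replaced TMM, and the filter on low counts, the prior count (2) and the set of libraries (each omitted in turn) were varied, some together with the block. Figures were drawn with matplotlib (3.10.9).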

Additional observations from a re-analysis of the deposited data

How the results depend on the processing

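The number of genes with an adjusted p under 0.05, 0 in the quasi-likelihood test without a block, differed between settings, and the cause was not tested. It was 3372 with the replicate block, 570 with the likelihood ratio test and 3168 with that test and the block, 456 in DESeq2 and 1056 in DESeq2 with the block, 3148 with library sizes alone and the block, 3191 with the block and genes over 2 CPM in every library, and 424 with no filter on low counts. With RLE size factors, library sizes alone, a prior count of 2 or genes over 2 CPM in every library it remained 0. Leaving out single libraries gave 0 to 103 such genes, 103 without replicate 1 and 33 without replicate 2 of CHD4 siRNA, where the lone library of an arm is assumed to vary like the other group. No fit with the block could be made there, since it leaves no residual degree of freedom. The common dispersion was 0.0410 without and 0.00919 with the block. Replicate numbers pair no samples by the labels, and with 2 pairs the correlation of 0.637 between the replicate differences of the knockdowns is a hint from the data only.

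At the study's threshold the counts of 278 higher and 205 lower genes became 305 and 230 with the block. The higher count was 463 with no filter and 178 with genes over 2 CPM in every library, and the lower count 135 with the latter. Without single libraries it ranged from 243 to 333 for higher and from 172 to 399 for lower genes. Of 169 named genes 54 passed the threshold, none of these changed sign in any of the 16 alternatives, and 45 passed in every alternative that tested them, among them 29 of the 30 largest differences. VIM was the exception, in DESeq2 with the block. The 30 were selected as past the threshold without the block and called with it, so their passing in other settings is no independent support.

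Sign changes were seen only in genes not past the threshold. Leaving out single libraries gave log2 fold changes from -0.030 to 0.082 for NLGN1, -0.28 to 0.92 for NHLRC1, -0.73 to 0.028 for NAALADL2, -0.019 to 0.42 for NTN4, -0.42 to 1.48 for TP63, -0.46 to 0.0019 for CHD1L, -0.32 to 0.018 for CHD3, -0.17 to 0.95 for BIRC5, -1.53 to 0.016 for CENPE, -0.00011 to 0.79 for CCNB1, -3.07 to 0.64 for SAMD9, -0.25 to 0.52 for ARRDC3, -1.71 to 3.57 for TXNIP and -1.20 to 0.67 for MT2A. MT2A also had -0.077 with the block, -0.077 with the likelihood ratio test and the block, -0.15 in DESeq2 with the block, -0.076 with library sizes alone and the block and -0.073 with genes over 2 CPM in every library and the block.

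Counted from start sites, which were at hand for 69.1% of higher and 72.7% of lower genes, too few for a valid check, the share of genes with a TRPS1 peak within 5, 50 and 100 kb was 3.65%, 9.38% and 15.6% for higher genes, 8.73%, 23.5% and 32.2% for lower genes and 4.32%, 13.2% and 21.8% for all genes tested. For genes called with the block it was 4.39% and 12.8% for higher and 4.69% and 15.2% for lower genes within 5 and 50 kb.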

Other observations

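The genes below were chosen after their values were seen and are given as values, in the order CHD4 siRNA replicates 1 and 2 and TRPS1 siRNA replicates 1 and 2. Iron uptake genes other than *TFRC* were examined. *CYBRD1*, a ferric reductase, had 133, 104, 43.7 and 45.1 CPM (log2 fold change 1.41, SE 0.18) and passed the study's threshold. *SLC11A2*, the divalent metal transporter of the same route, had 299.9, 267, 180.2 and 164 CPM (log2 0.72, SE 0.15), higher in both CHD4 siRNA libraries but under 2-fold. The exporter *SLC40A1* (log2 0.34, SE 0.18), the ferritin subunits *FTH1* (-0.03, SE 0.20) and *FTL* (0.09, SE 0.28) and the iron regulatory proteins *ACO1* (-0.14, SE 0.20) and *IREB2* (-0.02, SE 0.14) did not pass it.

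Prostaglandin genes went in both directions. Beside *PTGS1*, which was higher with CHD4 siRNA, the prostaglandin transporter *SLCO2A1* had 7.01, 5.37, 1.77 and 3.06 CPM (log2 1.33, SE 0.39), also higher past the threshold. *PTGES*, a terminal prostaglandin E synthase, had 61.3, 46.9, 167 and 145 CPM (log2 -1.53, SE 0.19), lower past it, with groups far apart. The other prostaglandin E synthases, *PTGES2* and *PTGES3*, had log2 fold changes of -0.16 (SE 0.22) and 0.19 (SE 0.19).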
